A study of Homo sapiens with 8 samples.

Results

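The genes described here are 10 of the 60606 in a table of read counts: the 5 subunits of the transcription factor NF-kB, 3 classical inhibitors of it, the atypical inhibitor BCL3, and TNFAIP2. They were chosen by gene symbol, and each symbol matched 1 gene of the table. TNFAIP2 is neither a subunit nor an inhibitor of NF-kB. It is a gene induced by tumour necrosis factor, and is described apart from the others. The counts come from total RNA of HEK293, a human cell line of embryonic kidney origin, after lipid transfection with a synthetic small RNA. In the tDR group (4 libraries) this was a mimic of a tRNA-derived RNA, the 3' piece of tRNA-Asp-GTC. In the control group (4 libraries) it was a scrambled sequence, so the controls also carry a transfected RNA. Each mimic was used at 50 nM and RNA was taken after 48 hours. All libraries are of 1 cell line. No label says that they are separate cultures, so a p-value measures the spread among 8 libraries and that spread may be technical.

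NF-kB proteins are dimers built from the products of RELA, REL, RELB, NFKB1 and NFKB2. In the canonical pathway a receptor such as the TNF receptor activates the IKK kinase complex, which marks IkB inhibitors for destruction and so frees dimers of RELA or REL with the NFKB1 product. In the noncanonical pathway receptors such as LTBR and CD40 stabilise the kinase MAP3K14, the NFKB2 precursor is trimmed to its active form, and dimers of that form with RELB enter the nucleus. Several of these genes are themselves induced by NF-kB in many cell types, among them NFKBIA, whose protein shuts the response down, and NFKB2 and RELB.

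The stretches of DNA before the starts of several of these genes carry the kB consensus motif, to which NF-kB binds. They are shown as a description. RefSeq gave windows of 250 bases before to 50 bases after a start for 8 of the 10 genes, all but RELB and NFKBIE, with 13 windows in all (GRCh38.p14). The windows were searched on both strands for the kB consensus motif, and overlapping matches were counted separately. Of the 13 windows 7 held a match, in 6 of the 8 genes. Of all 35116 RefSeq windows, 11.3% held at least 1, and 2.04% held at least 2. Of the 27305 genes with a window, 13.3% had a match. NFKB2 has 3 windows. The 250 bases before the second start (chr10:102394328-102394577, plus strand), with the letters of all matches in capitals, read:
NFKB2, the second start: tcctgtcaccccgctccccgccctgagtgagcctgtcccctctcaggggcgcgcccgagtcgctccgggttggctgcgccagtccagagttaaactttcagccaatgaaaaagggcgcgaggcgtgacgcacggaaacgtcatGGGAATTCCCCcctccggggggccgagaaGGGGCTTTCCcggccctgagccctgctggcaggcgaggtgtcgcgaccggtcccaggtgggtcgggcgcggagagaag
The window of the third start of NFKB2 held 2 matches, the nearer of which begins 21 bases before that start, and shorter stretches of the other genes with a match before the start follow for comparison, again with the match in capitals.
NFKB2, the third start (chr10:102395674-102395703, plus strand): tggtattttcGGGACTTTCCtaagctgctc
REL (chr2:60881517-60881547, plus strand): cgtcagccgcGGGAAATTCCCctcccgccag
NFKB1 (chr4:102501300-102501329, plus strand): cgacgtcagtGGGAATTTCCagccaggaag
NFKBIA (chr14:35404811-35404840, minus strand): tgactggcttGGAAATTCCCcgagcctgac
NFKBIB (chr19:38899931-38899961, plus strand): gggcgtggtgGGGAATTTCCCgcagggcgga
BCL3 held a single match, GGGAAGTCCC, 3 bases after its start. The windows of RELA and TNFAIP2 held none. Genes with a match in their window thus include NFKB2, which was higher in tDR cells, and REL, NFKB1, NFKBIA, NFKBIB and BCL3, which did not pass the test. TNFAIP2, also higher, had no match. RELB, which rose most, had no window and cannot be placed in this comparison. The match is a description of these letters, and the counts are per gene and do not separate its starts.

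RELB and NFKB2, the subunit genes of the noncanonical pathway, were higher in the tDR libraries, while RELA, NFKB1 and REL, the canonical subunit genes, did not pass the test. RELB rose 3.17-fold and NFKB2 1.55-fold. TNFAIP2 rose 2.23-fold from a very low level. None of the 3 classical inhibitors passed. Of the 10 genes 3 were called higher and 0 lower by edgeR's quasi-likelihood test over 17184 genes at a Benjamini-Hochberg adjusted p under 0.05, where 12.8% of all genes tested were called higher, 11.4% lower and 24.3% in either direction. RELA and BCL3 had an unadjusted p under 0.05 in that fit and did not pass after adjustment. The share of all genes at the unadjusted threshold is not given, so no tilt of the 10 genes can be read from it. DESeq2 called 3 of the 10 higher and 0 lower, and 1796 of all 17184 genes higher and 1948 lower. The 10 genes were proposed with results of this contrast known. Their differences are therefore given as a description, without p-values, and nothing is read from their count against that share.

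**Figure D1:**
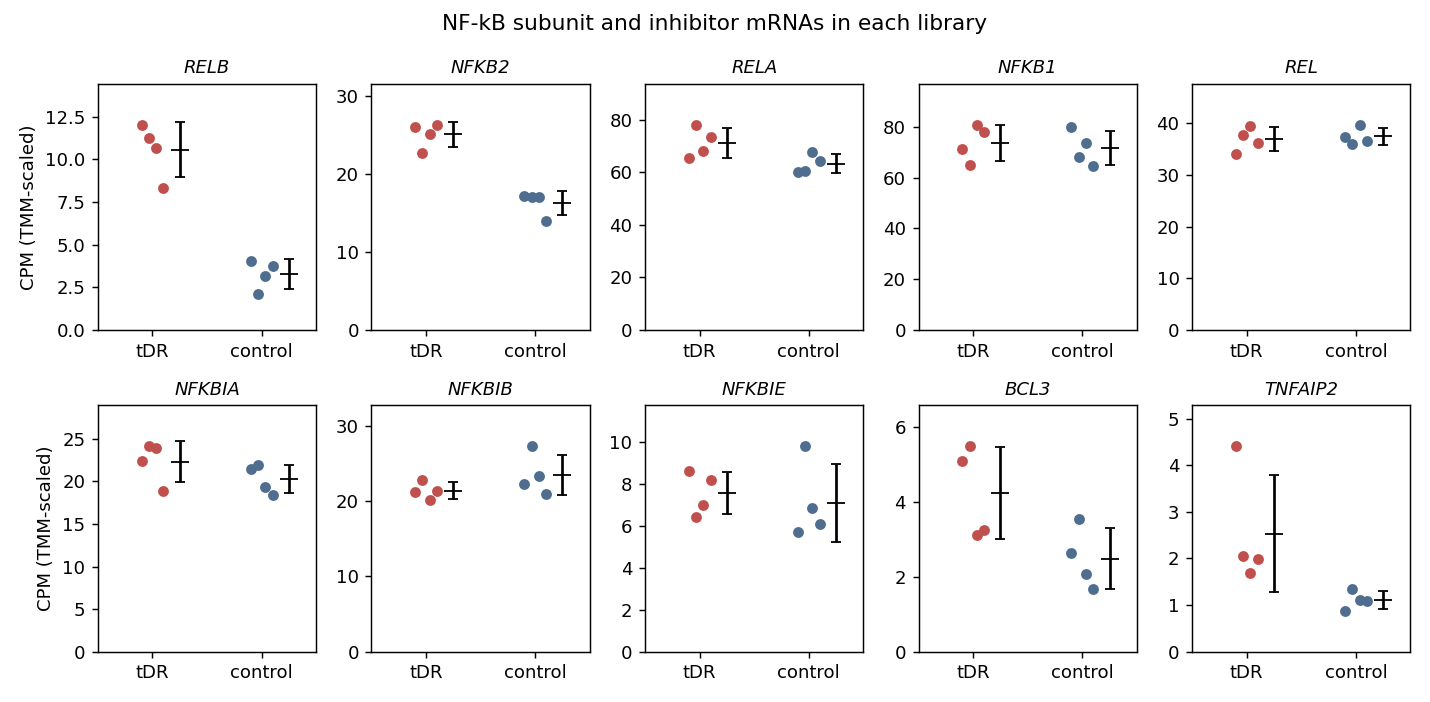
Levels (CPM, TMM-scaled, linear axes from 0) of the 10 genes in the 4 tDR and 4 control libraries; points are libraries in the order of their replicate numbers, and bars give the mean and SD. All tDR points lie above all control points for RELB, NFKB2 and TNFAIP2, and the groups overlap for the other 7 genes.

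RELB (chromosome 19, 45001430 to 45038198, plus strand) encodes the subunit that pairs with the NFKB2 product. It stood at 12.0, 11.2, 10.6 and 8.28 CPM in tDR replicates 1, 2, 3 and 4, and at 4.05, 2.08, 3.18 and 3.73 CPM in control replicates 1, 2, 3 and 4. The lowest tDR library lay above the highest control library by more than the whole range of the controls. The means were 10.5 ± 1.61 CPM in tDR libraries and 3.26 ± 0.866 CPM in controls (SD, n = 4 each), and the log2 fold change was 1.66 ± 0.22 (SE). A log2 fold change as high was found in 50 of the 17184 genes tested, RELB itself not counted. RELB was proposed with results of this contrast known, so that rank is a description. Its raw counts were low, between 71 and 82 in tDR libraries and between 17 and 38 in controls. Counting alone gives a spread of 11.3% in tDR libraries and 18.9% in controls at these depths, against observed coefficients of variation of 15.3% in tDR and 26.6% in control libraries.

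Background over silent genes also differed between the groups. Counts over 381 olfactory receptor genes, which this cell type is not known to use, gave 0.0232 to 0.0256 CPM per kb of gene in tDR libraries and 0.0141 to 0.0185 in controls. This was scaled to the whole span of each gene, introns included (36.8 kb for RELB, with 3.035 kb of exon). For RELB that would make up 8.74% of its counts in tDR libraries and 17.4% in controls. With this amount subtracted the log2 fold change of RELB was 1.87 and it was still called. The same estimate exceeded all counts of some listed genes, such as TNFSF13B (194% in tDR libraries, 108% in controls). Background shares given here can therefore be too high. Over 16 alternative analyses its log2 fold change lay between 1.49 and 1.87 and it was called in each of them.

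NFKB2 (chromosome 10, 102394110 to 102402529, plus strand) encodes a precursor that holds RELB in the cytoplasm and is trimmed to the subunit that partners it. It stood at 26.1, 22.7, 25.1 and 26.3 CPM in the tDR libraries and at 17.2, 17.0, 17.0 and 13.9 CPM in the controls. All tDR libraries lay above all controls, and the lowest of them, replicate 2, was still well clear of the highest control. The means were 25.1 ± 1.64 CPM in tDR libraries and 16.3 ± 1.56 CPM in controls (SD, n = 4 each), and the log2 fold change was 0.63 ± 0.12 (SE). An increase of this size was common in the table: 2157 genes tested had a log2 fold change as high. The estimated background was 0.821% of its counts in tDR libraries and 0.819% in controls. Its log2 fold change lay between 0.54 and 0.71 over the 16 alternatives, with the call kept in all of them.

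RELA (chromosome 11, 65653596 to 65663094, minus strand), which encodes the main activating subunit of the canonical pathway, stood at 65.5, 78.2, 68.2 and 73.4 CPM in tDR libraries and at 60.1, 60.7, 67.9 and 64.5 CPM in controls. In 3 of the 4 tDR libraries it was above every control, and the groups overlapped through tDR replicate 1. Its log2 fold change was 0.18 ± 0.07 (SE) and it was not called. It was called with scaling to library size alone (0.26), with background subtracted (0.24) and without tDR replicate 1 (0.21), so whether RELA counts as changed turns on those choices.

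NFKB1 (chromosome 4, 102501329 to 102617302, plus strand), which encodes the precursor of the DNA-binding partner of RELA, stood at 71.4, 64.9, 80.9 and 78.0 CPM in tDR libraries, against 80.0, 68.3, 73.6 and 64.6 CPM in controls. The groups covered nearly the same range. Its log2 fold change was 0.05 ± 0.07 (SE). REL (chromosome 2, 60881521 to 60931610, plus strand), which encodes the subunit c-Rel best known from lymphocytes, stood at 34.0, 37.7, 39.5 and 36.3 CPM in tDR libraries and 37.3, 36.1, 39.7 and 36.6 CPM in controls, with a log2 fold change of -0.02 ± 0.09 (SE). From the SE, the 95% interval of the change of RELA ran from 1.03-fold to 1.25-fold and so lay above no change. That of NFKB1 ran from 0.936-fold to 1.14-fold and that of REL from 0.874-fold to 1.12-fold. The sign for REL turned under 4 alternatives and that for NFKB1 under 2, all without a call.

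**Figure D2:**
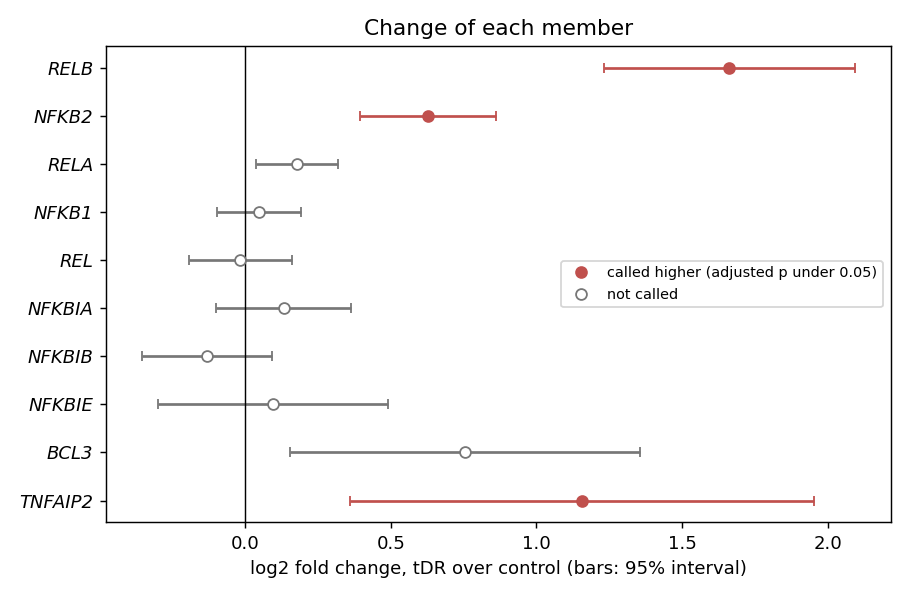
Log2 fold change of each gene, tDR over control, with bars for the 95% interval from the SE; filled red points were called higher and open grey points were not called. RELB at 1.66 and NFKB2 at 0.63 stand to the right of RELA, NFKB1 and REL, whose values lie between -0.02 and 0.18.

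The noncanonical and canonical subunit genes were also compared within each library, where scaling between libraries all but cancels. The mean log2 CPM of RELB and NFKB2 less that of RELA, REL and NFKB1 was -1.60, -1.83, -1.86 and -1.98 in tDR replicates 1 to 4 and -2.71, -3.07, -2.93 and -2.84 in control replicates 1 to 4. All tDR libraries lay above all controls. The means were -1.82 ± 0.16 in tDR libraries and -2.89 ± 0.15 in controls (SD, n = 4 each), a difference of 1.07 on the log2 scale. Dropping REL, subtracting background or leaving out any 1 library gave differences from 0.99 to 1.16. The RELB to RELA ratio of counts per exon length was 0.268 ± 0.053 in tDR libraries and 0.0929 ± 0.026 in controls. The NFKB2 to NFKB1 ratio was 0.476 ± 0.032 in tDR libraries and 0.318 ± 0.022 in controls.

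RELB had a larger fold change than NFKB2, its partner. The RELB to NFKB2 ratio per exon length was 0.681, 0.730, 0.624 and 0.465 in the tDR libraries and 0.348, 0.181, 0.276 and 0.395 in the controls. The lowest tDR value, in replicate 4, was close to the highest control value, in replicate 4, and the groups did not overlap. RELB mRNA remained the scarcer of the pair in all 8 libraries.

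Levels of different genes are compared per kb of exon, with exon lengths from GENCODE 29. An exon length joins the exons of all annotated transcripts of a gene (13.17 kb for REL, 5.464 kb for RELA). It can exceed the length of the main mRNA, and levels, shares and ratios between genes depend on it. Whether exons alone were counted was not stated in the sources used here. Summed over the 5 subunits the level was 36.7 ± 0.811 CPM per kb in tDR libraries and 30.6 ± 1.54 in controls (SD, n = 4 each). RELB and NFKB2 together made up 24.7% ± 1.83 of that sum in tDR libraries and 15.4% ± 0.617 in controls. The share of RELB alone was 9.48% ± 1.60 in tDR libraries and 3.50% ± 0.889 in controls. RELA held 35.6% ± 2.86 in tDR libraries and 37.9% ± 2.43 in controls, and NFKB1 held 32.1% ± 2.58 in tDR libraries and 37.4% ± 2.07 in controls. These are shares of mRNA, and the amount of each protein and its processing were not measured.

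**Figure D3:**
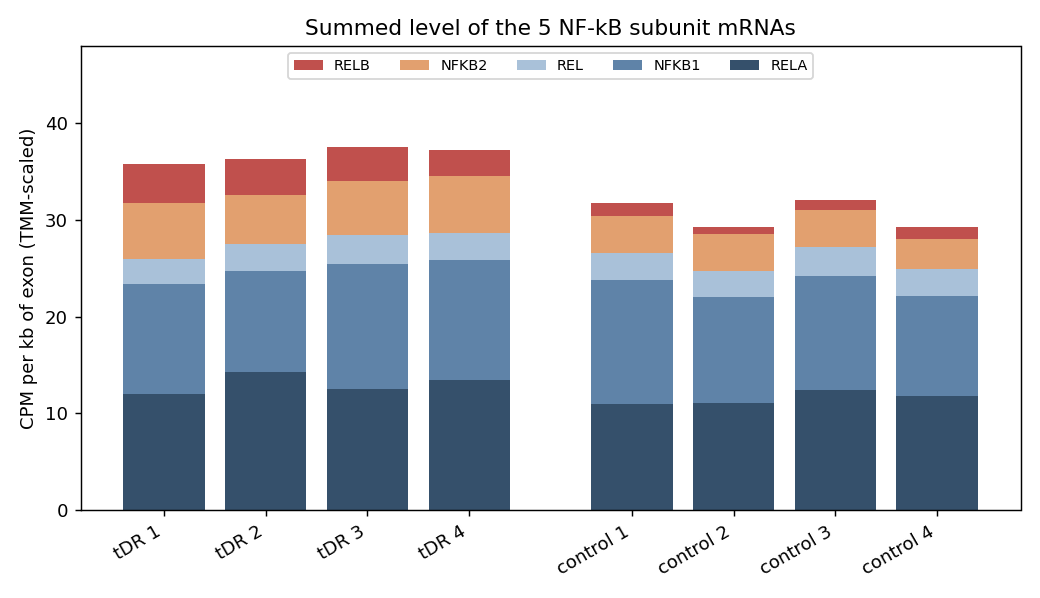
Summed level of the 5 NF-kB subunit mRNAs in CPM per kb of exon (stacked bars, linear axis from 0), with the 4 tDR libraries to the left of the 4 controls. The RELB and NFKB2 segments at the top of the bars made up 23.1% to 27.3% of the sum in tDR libraries and 14.8% to 16.3% in controls.

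In tDR cells the order of levels per kb was RELA (13.1), NFKB1 (11.8), NFKBIA (9.41), NFKBIB (9.21), NFKB2 (5.59), RELB (3.47), NFKBIE (2.93), REL (2.80), BCL3 (1.30) and TNFAIP2 (0.504). In control cells it was RELA (11.6), NFKB1 (11.4), NFKBIB (10.1), NFKBIA (8.54), NFKB2 (3.63), REL (2.84), NFKBIE (2.75), RELB (1.07), BCL3 (0.764) and TNFAIP2 (0.219). RELA and NFKB1 overlapped each other in both groups, as did NFKBIA and NFKBIB, and NFKBIE and REL. NFKBIB overlapped RELA and NFKB1 in control cells as well. NFKB2 lay apart from all the others in tDR cells, and in control cells it overlapped NFKBIE. RELB was eighth in control cells, where its range overlapped that of BCL3 and lay below that of NFKBIE. It was sixth in tDR cells, where it overlapped NFKBIE and REL and lay above BCL3.

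The classical inhibitors did not pass the test, although NFKBIA is the best-known feedback target of canonical NF-kB. NFKBIA (chromosome 14, 35401511 to 35404749, minus strand), which encodes IkB-alpha, stood at 22.3, 24.1, 24.0 and 18.9 CPM in tDR libraries and at 21.5, 21.9, 19.4 and 18.4 CPM in controls. NFKBIA was above every control in 3 of the 4 tDR libraries, and tDR replicate 4 fell inside the control range. Its log2 fold change was 0.13 ± 0.12 (SE). Per exon length the NFKBIA to RELA ratio was 0.724 ± 0.098 in tDR libraries and 0.742 ± 0.098 in controls. NFKBIB (chromosome 19, 38899700 to 38908893, plus strand), which encodes IkB-beta, stood at 20.2 to 22.9 CPM in tDR libraries and 21.0 to 27.3 CPM in controls, with a log2 fold change of -0.13 ± 0.11 (SE). Its first 163 bases overlap SIRT2 on the opposite strand, a gene with 139 to 280 counts a library, and the strand setting of the counting was not stated in the sources used here. NFKBIE (chromosome 6, 44258166 to 44265788, minus strand), which encodes IkB-epsilon, stood at 6.44 to 8.63 CPM in tDR libraries and 5.69 to 9.79 CPM in controls, with a log2 fold change of 0.10 ± 0.20 (SE). The groups overlapped for all 3. The 95% interval ran from 0.934-fold to 1.29-fold for NFKBIA and from 0.782-fold to 1.07-fold for NFKBIB. For NFKBIE it ran from 0.813-fold to 1.40-fold.

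BCL3 (chromosome 19, 44747705 to 44760044, plus strand) encodes a nuclear member of the IkB family that binds dimers of the NFKB1 or NFKB2 product and can activate transcription with them. It stood at 5.08, 5.48, 3.11 and 3.25 CPM in tDR libraries and at 2.63, 3.55, 2.07 and 1.67 CPM in controls. In tDR replicates 1 and 2 it was above every control, while replicates 3 and 4 fell inside the control range. Its log2 fold change was 0.75 ± 0.31 (SE) and it was not called. It was called with scaling to library size alone (0.84) and without control replicate 2 (0.97), the highest control. With 13 to 40 counts a library, depth limits what can be said of it.

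TNFAIP2 (chromosome 14, 103123442 to 103137439, plus strand), known for the formation of membrane protrusions between cells, stood at 4.40, 2.05, 1.68 and 1.99 CPM in tDR libraries, against 0.876, 1.35, 1.11 and 1.08 CPM in controls. All tDR libraries were above all controls, and tDR replicate 1 was far above the other three. The raw counts were 26, 15, 13 and 19 in tDR libraries and 8, 11, 7 and 11 in controls. Its log2 fold change was 1.16 ± 0.41 (SE). Without tDR replicate 1 it was 0.78 and the call was lost. The call was also lost without control replicate 1 (1.05), 3 (1.15) or 4 (1.14), with no filter on low counts (1.13) and with background subtracted (1.29). Estimated background made up 14.3% of its counts in tDR libraries and 20.0% in controls. RELB, NFKB2 and TNFAIP2 were the 3 of the 10 genes in which each tDR library lay above each control, as was the case for 11.8% of all genes tested.

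**Figure D4:**
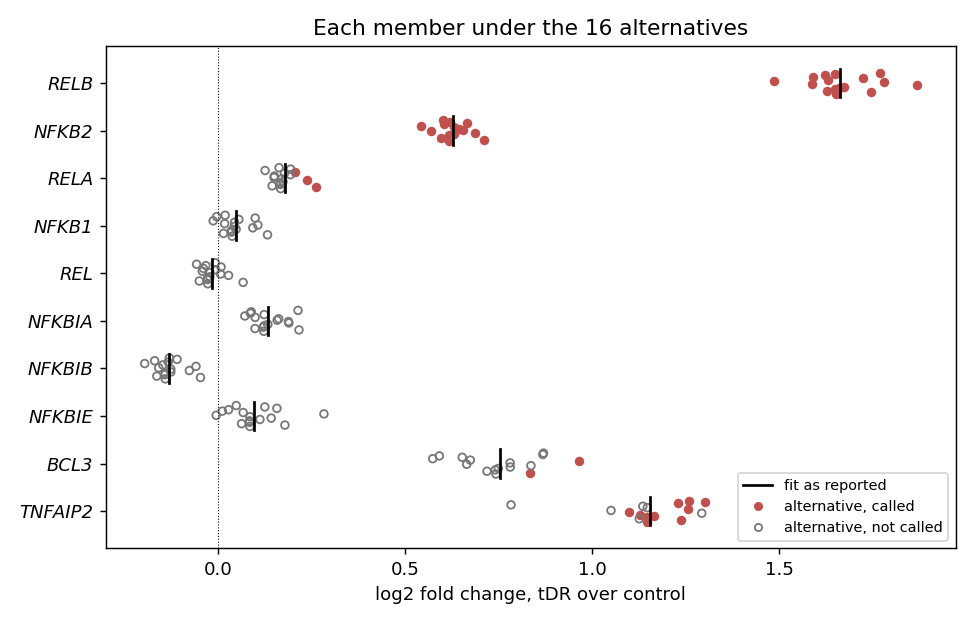
Log2 fold change of each gene, tDR over control, in the reported fit (black line) and in 16 alternatives (points, red where called, open where not called). RELB and NFKB2 were called throughout, TNFAIP2 was called in 10 of 16, RELA in 3, BCL3 in 2 and the other 5 genes in none.

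The rest of the pathway was described from 7 lists with 90 genes, of which 56 had enough counts to be tested. Of these 8 rose, 2 fell and 46 did not pass, with a median log2 fold change of 0.03, against 0.02 for all 17184 genes tested. The share that rose was 14.3%, close to the 12.8% of all genes tested, and the share that fell was 3.57%, against 11.4%. The lists were chosen with earlier results of this contrast known, and the counts of the single lists are given as a description, against those same shares of all genes. Without control replicate 4 there were 5 that rose, and without tDR replicate 2 or 3 there was 1 that fell. With library size alone 0 fell. With background subtracted 0 fell too, but SOD2 was not among the genes tested there. Genes named here are the up to 4 with the lowest p in their list, and 6 more whatever their value. Some further receptors that did not pass are also named. Calls and adjusted p-values are from edgeR's quasi-likelihood test with Benjamini-Hochberg adjustment over all genes.

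Of 9 tested receptors 3 rose and 6 did not pass, where 12.8% of all genes tested rose. LTBR, the lymphotoxin beta receptor that feeds the noncanonical pathway, was at 30.8 ± 2.92 CPM in tDR libraries and 24.5 ± 4.31 CPM in controls (SD, n = 4 each; log2 fold change 0.33, edgeR adjusted p = 0.025). CD40, another receptor of that pathway, was at 2.23 ± 0.338 CPM in tDR libraries and 0.913 ± 0.385 CPM in controls (log2 fold change 1.29, edgeR adjusted p = 0.0187). CD40 had 15 to 21 counts a library in the tDR group and 4 to 11 in controls. Estimated background was 12.9% of its counts in tDR libraries and 20.5% in controls. TNFRSF1B, the second TNF receptor, was at 2.08 ± 0.275 CPM in tDR libraries and 0.861 ± 0.268 CPM in controls (log2 fold change 1.30, edgeR adjusted p = 0.0188), with 49.2% of its counts in tDR libraries and 79.9% in controls estimated as background. LTBR lost its call when control replicate 1 (0.20), tDR replicate 1 (0.28) or tDR replicate 2 (0.29) was left out, and with DESeq2 (0.32). CD40 lost it when control replicate 2 (1.08), control replicate 4 (1.15) or tDR replicate 1 (1.19) was left out, and with background subtracted (1.52). TNFRSF1B lost it when control replicate 4 (1.07), tDR replicate 2 (1.27) or tDR replicate 3 (1.23) was left out, and with no filter on low counts (1.26), and was too low to be tested with background subtracted. IL1R1, the interleukin-1 receptor, did not pass (log2 fold change 0.57, edgeR adjusted p = 0.0968). The receptors TNFRSF11A, TNFRSF12A and TNFRSF13C did not pass either. Their log2 fold changes were -0.05, 0.39 and -0.13 (edgeR adjusted p = 0.778, 0.432 and 0.704). Of 10 ligands only IL1A and IL1B had enough counts. IL1B, an inflammatory cytokine that also activates NF-kB, was at 1.82 ± 0.533 CPM in tDR libraries and 0.729 ± 0.620 CPM in controls and did not pass (log2 fold change 1.21, edgeR adjusted p = 0.0508). Its groups overlapped, with control replicate 1 at 1.64 CPM and tDR replicate 4 at 1.26 CPM. IL1A did not pass either and had the other sign (log2 fold change -0.25, edgeR adjusted p = 0.656).

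Of 10 kinases and kinase adaptors 1 rose. TAB2, which couples ubiquitin chains to the kinase that activates IKK, was at 190.3 ± 6.55 CPM in tDR libraries and 162.5 ± 10.8 CPM in controls (log2 fold change 0.23, edgeR adjusted p = 0.000937), with each tDR library above each control. MAP3K14, the kinase that starts the noncanonical pathway, was at 22.7 ± 1.35 CPM in tDR libraries and 24.1 ± 1.88 CPM in controls (log2 fold change -0.09, edgeR adjusted p = 0.616). IKBKE, an IKK-related kinase, was at 11.8 ± 2.77 CPM in tDR libraries and 9.06 ± 1.01 CPM in controls and did not pass (log2 fold change 0.36, edgeR adjusted p = 0.118). CHUK, the IKK subunit that the noncanonical pathway uses, had a log2 fold change of -0.12 (edgeR adjusted p = 0.192) and IKBKG, the regulatory subunit, of -0.26 (edgeR adjusted p = 0.195). Of 14 tested adaptors and ubiquitin ligases 1 rose, IRAK1, a kinase of the interleukin-1 receptor, with 386.6 ± 15.0 CPM in tDR libraries and 343.5 ± 27.3 CPM in controls (log2 fold change 0.17, edgeR adjusted p = 0.00803). It lost its call without control replicate 1 (0.11) or tDR replicate 2 (0.14). RIPK1, RBCK1 and MYD88, signalling proteins downstream of TNF or interleukin-1 receptors, had log2 fold changes of 0.19, 0.21 and 0.30 and did not pass (edgeR adjusted p = 0.0555, 0.185 and 0.31). TRAF3, which keeps MAP3K14 low in resting cells, was at 133.2 ± 13.6 CPM in tDR libraries and 134.4 ± 2.37 CPM in controls (log2 fold change -0.01, edgeR adjusted p = 0.903).

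**Figure D5:**
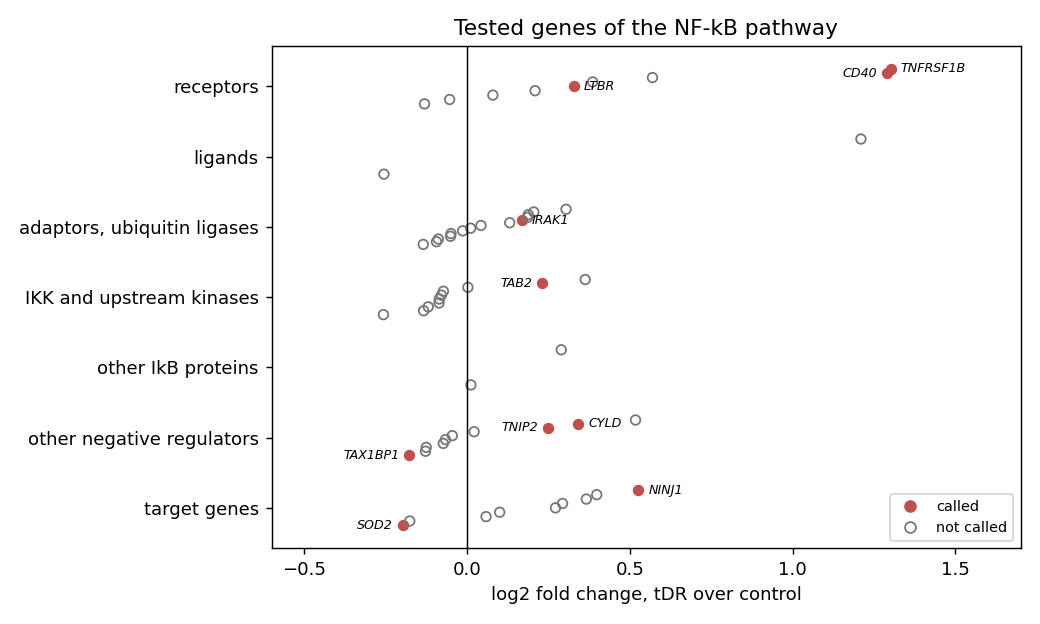
Log2 fold change, tDR over control, of the 56 tested genes in 7 NF-kB pathway lists; red points with names were called and open points were not. Of the 56 genes 8 lie to the right and 2 to the left of 0 as called.

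Among 10 tested negative regulators outside the IkB family 2 rose and 1 fell. CYLD, which removes the ubiquitin chains that activate IKK, was at 40.7 ± 2.37 CPM in tDR libraries and 31.9 ± 3.83 CPM in controls (log2 fold change 0.34, edgeR adjusted p = 0.00533) and was called in all 16 alternatives. TNIP2, a partner of TNFAIP3, rose by 0.25 on the log2 scale (edgeR adjusted p = 0.0183) but lost its call without control replicate 1 (0.21), 3 (0.22) or 4 (0.23), without tDR replicate 1 (0.22) or 3 (0.21) and with no filter on low counts (0.21). TAX1BP1, another such partner, fell by 0.18 (edgeR adjusted p = 0.0179) and lost its call with library size alone (-0.09), with background subtracted (-0.13) and without tDR replicate 3 (-0.14). TNIP1, also a partner of it, did not pass (log2 fold change -0.13, edgeR adjusted p = 0.0896). TNFAIP3, the ubiquitin-editing feedback inhibitor A20 that canonical NF-kB induces, was at 6.83 ± 1.11 CPM in tDR libraries and 7.10 ± 0.743 CPM in controls (log2 fold change -0.04, edgeR adjusted p = 0.899). The other IkB genes, NFKBID and NFKBIZ, did not pass, with log2 fold changes of 0.29 and 0.01 (edgeR adjusted p = 0.329 and 0.963).

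Of 29 genes known as NF-kB targets only 9 had enough counts to be tested, of which 1 rose and 1 fell. NINJ1, a protein of membrane rupture, was at 20.4 ± 1.22 CPM in tDR libraries and 14.0 ± 2.85 CPM in controls (log2 fold change 0.53, edgeR adjusted p = 0.00253), with each tDR library above each control and the call kept in all 16 alternatives. SOD2, the mitochondrial superoxide dismutase, fell to 123.0 ± 7.40 CPM in tDR libraries, against 140.9 ± 5.45 CPM in controls (log2 fold change -0.20, edgeR adjusted p = 0.00747), a call that ended with scaling to library size alone (-0.11) and without tDR replicate 2 (-0.16). SOD2 was not tested with background subtracted or with length and GC offsets, because its symbol had no match in the annotation those steps need. SDC4, a heparan sulfate proteoglycan, and GADD45B, a stress-response protein, did not pass, with log2 fold changes of 0.27 and 0.40 (edgeR adjusted p = 0.175 and 0.221). CXCL8, a chemokine, had too few counts to pass the filter, with 8 counts over the 4 tDR libraries and 2 over the 4 controls. BIRC3, an inhibitor of apoptosis that NF-kB induces and here 1 of the ubiquitin ligases listed, did not pass the filter either, with 23 over the tDR libraries and 26 over the controls. Of the 90 genes 8 were listed at 0 in all libraries, among them ITCH and RNF31, which most cells express, so a 0 in this table sets no limit on a gene's level. Those names were chosen after their values were seen.

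The genes whose pattern over the 8 libraries was most like that of RELB were EGR1, PECAM1, PLA2G5, WNT9B and ANKRD1, out of 14288 genes with a symbol and a mean log2 CPM above 1. Likeness was the root mean square difference of log2 CPM centred over the libraries, which was 0.14 for EGR1 and 0.29 to 0.31 for the other four. All these genes share the same 8 libraries and their depths, and a difference between the groups. EGR1, an immediate early transcription factor, stood at 8.80 ± 1.31 CPM in tDR libraries and 3.07 ± 0.972 CPM in controls. It was chosen for its likeness to RELB in these libraries, so that likeness is a description.

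Total counts were between 5848305 and 9237986 in tDR libraries and between 6536554 and 10557740 in controls. All 8 marker genes checked for HEK293 cells, among them PAX2, NEFL, NEFM and VIM, were detected, with a summed level of 680 to 736 CPM in tDR libraries and 768 to 827 CPM in controls. NEFL, NEFM and CDH2 were lower and PAX2 and KRT8 higher in every tDR library than in any control, and the other 3 overlapped. Immune markers summed to 9.59 to 14.4 CPM in tDR libraries and 7.01 to 11.9 CPM in controls, with CD68 listed at 0. The 4 endothelial markers, PECAM1 among them, summed to 13.1 to 18.2 CPM in tDR libraries and 7.33 to 9.05 CPM in controls. Their sum was thus higher in the group in which RELB and TNFAIP2 were higher. KDR overlapped between the groups, at 0.677 to 4.11 CPM in tDR libraries and 0.491 to 2.08 CPM in controls. PECAM1, CDH5 and VWF did not overlap. The part of the endothelial markers in those results, and that of the background over silent genes, was not tested beyond the subtraction given above. In bulk RNA a higher level in each cell and a larger share of cells expressing a gene cannot be told apart.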

How the data were processed

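Long RNA was measured in 8 HEK293 libraries made, per the labels' protocols, with a stranded total RNA kit for low input (SMARTer Pico, version 2). The deposited values are raw counts of reads for each gene, 1 column a library, which the authors left unnormalized. The submitters' processing notes list STAR 2.7.8a, featureCounts 2.0.2, cutadapt 2.10 and DESeq2 1.30.1 and the builds hg38 and GRCh38.p13. Strand setting, annotation release and handling of multimapping reads were not stated in the sources used here.

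All 60606 genes entered 1 fit with edgeR 4.0.16 in R 4.3.3 (TMM, filterByExpr, group as the only term, quasi-likelihood F test, Benjamini-Hochberg threshold 0.05), which left 17184. The SE is the log2 fold change divided by the root of F. CPM use TMM-scaled library sizes. Log2 CPM used a prior count of 2. GENCODE 29 gave positions (GRCh38, 1-based) and exon lengths, with the exons of all transcripts of a gene joined. Steps were tested on simulated data. Replicates differed by more than counting noise (chi-square per degree of freedom of at least 2.13). Alternatives were RLE scaling, library size alone, 2 other filters, DESeq2 1.42.0, a replicate block, background subtraction, length and GC offsets and leaving out each library. The members and lists were chosen with earlier results of these data known. Named genes are all members, up to 4 of each list with the smallest p, 6 further pathway genes and the 5 most like RELB. Some further receptors that did not pass were also named.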

Additional observations from a re-analysis of the deposited data

Results flagged for a closer look

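In each group of 4 libraries the gap between the most extreme library and its nearest neighbour was compared with the range of the group (Dixon's criterion at the 95% level) for all 10 genes, 20 groups in all. Chance alone would set apart about 1 group in 20, and 2 were. NFKB2 stood at 13.95 CPM in control replicate 4, below the other three controls, which were between 17.0 and 17.2 CPM. Without that library its log2 fold change was 0.54, still called, so the increase of NFKB2 does not rest on it. TNFAIP2 stood at 4.40 CPM in tDR replicate 1, above the other tDR libraries at 1.68 to 2.05 CPM. Without that library its log2 fold change was 0.78 and it was no longer called.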

How the results depend on the processing

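RELB and NFKB2 kept their direction and call in all 16 alternatives, and the noncanonical-minus-canonical difference lay between 0.99 and 1.16 in the alternatives run for it. With scaling to library size alone 5 of the 10 genes were called higher, RELA and BCL3 being added; leaving out 1 library gave 2 to 4. With background subtracted 3 were called, with RELA in place of TNFAIP2. Over all genes, 1092 were called higher and 1015 lower with background subtracted, and 3295 higher and 907 lower with library size alone, where the median log2 fold change of all genes was 0.10 rather than 0.02. Leaving out 1 library gave 1640 to 2200 higher and 1511 to 2109 lower. Of the pathway genes 0 were called lower with library size alone or with background subtracted, and 5 to 8 higher and 1 to 3 lower with 1 library left out. With library size alone 12 of them were called higher, and with length and GC offsets 10. The sign of REL turned with library size alone (0.067), background subtracted (0.028) and length and GC offsets (0.0067), and without tDR replicate 1; with 1 library left out its log2 fold change ranged from -0.058 to 0.0079. That of NFKB1 turned without control replicate 4 or tDR replicate 3 (range -0.013 to 0.11), and that of NFKBIE without control replicate 1 (range -0.0053 to 0.28). None of these values was called. The cause was not tested. Deviations of same-numbered libraries correlated between -0.03 and 0.07, and those of differently numbered libraries between -0.08 and 0.06. Values this near 0 over all genes cannot decide whether same-numbered libraries were handled together. With the replicate block 2040 genes were called higher and 1834 lower, RELB was at 1.67 and NFKB2 at 0.63, and 3 of the 10 genes were called. Depth limits RELB, BCL3 and TNFAIP2 and most target genes.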
